A study of Mus musculus with 8 samples.

Results

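Collagens are the chains of the triple-helical proteins that give extracellular matrix its strength, and 42 collagen genes were measured in mouse brain RNA. They were taken by symbol (Col, a number, the letter a and a number) from an expression array table of 22206 rows, of which 19572 carry 1 gene symbol and name 19505 genes. Each of the 42 genes has 1 row. The genes were sorted by protein structure into 11 fibrillar chains, 6 network chains of type IV, 2 multiplexins, 6 chains of type VI, 3 short chains, 8 fibril-associated chains (FACIT), 4 transmembrane chains and 2 others. Of 45 listed collagen genes, Col7a1, Col12a1 and Col21a1 are not analysed here.

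Brain parenchyma holds little fibrillar collagen. Fibrillar collagens of the brain lie mainly in the meninges and around larger vessels, where fibroblasts make them, whereas type IV collagen, made largely by endothelial and mural cells, forms the network of the basement membrane around every vessel and under the pia. Multiplexins sit at the border of that membrane, type VI collagen forms fine filaments beside it, and several FACIT and transmembrane collagens are also made by neurons.

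The study asked how rosemary extract (RE), given in drinking water, alters brain gene expression around an acute stressor, the tail suspension test (TST), where mice hung by the tail are watched for the time they stay still. All groups were male mice of the outbred strain ICR with no genetic change, bought at 8 weeks of age, housed alone, acclimatized for 1 week and treated for 7 days, with 7 mice assigned to a group. The groups, of 2 arrays each, were water with TST, RE at the low dose of 10 mg/kg with TST, RE at the high dose with TST, and water without TST. Titles give the high dose as 100 mg/kg, while source names give 50 mg/kg. A characteristics field names water without TST "Positive Control" and water with TST "Negative control", and titles were followed here. The tissue is labelled limbic system, and hippocampus in a further field. Whether an RNA sample is 1 mouse or a pool is not given, so the tests cover no more than the spread between the duplicate samples. Values are log2 signals made with the robust multichip average (RMA). The arrays as deposited still differ in distribution, with a 25th percentile of 5.48 to 5.81. A level is set here against other arrays for 1 gene, and never against another gene.

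Some arrays stood apart from the rest. Replicate 2 of water with TST and replicate 1 of water without TST were high in 11 cerebellar neuron markers: their mean deviation from the 8-array mean was 4.88 and 2.79 on the log2 scale, against -1.67 to -0.587 on the other arrays. Gabra6, a receptor subunit of cerebellar granule cells, read 16.37 and 14.31 on those arrays and at most 8.42 elsewhere. The 9 markers of forebrain excitatory neurons, the neurons of the labelled tissue, averaged -2.23 on water with TST replicate 2 and -0.282 to 0.680 on the other arrays. The 10 choroid plexus markers averaged -1.45 on water with TST replicate 2 and 0.861 on low-dose RE replicate 2, against -0.201 to 0.379 elsewhere. The 10 thalamic neuron markers averaged 0.758 and 0.315 with low-dose RE and 0.244 and 0.460 with high-dose RE, against -0.0839 and -1.07 in water with TST and -0.378 and -0.241 in water without TST, so that all 4 RE arrays lay above all 4 water arrays. No detection call comes with the values, so which markers were absent could not be told. The part of these markers in each result below was not tested. Values without both arrays high in cerebellar markers are given only for the low-dose and high-dose collagen medians, Col4a2, Col4a3 and Col18a1.

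No collagen gene differed between groups at an adjusted p under 0.05, and few passed the study's own, looser threshold. That threshold is a fold change above 1.2 with an unadjusted p under 0.05, applied here to the limma fit of all 8 arrays. Between water with TST and water without TST, 0 of 42 collagen genes passed it, against 567 of 22206 rows (2.55%). Between low-dose RE and water with TST, 2 passed, Col4a2 upward and Col4a3 downward, against 787 rows (3.54%). Between high-dose RE and water with TST 0 passed, against 705 rows (3.17%), and between the high and the low dose 0 passed, against 425 rows (1.91%). The share of called collagen genes, 4.76% with the low dose, lies near that of all rows. Without water with TST replicate 1, which leaves the array highest in cerebellar markers alone in its group, 6, 5 and 5 collagen genes passed in the TST, low-dose and high-dose comparisons, and rows past the threshold numbered 3707, 3767 and 3785. The low-dose count was also 5 without low-dose RE replicate 1, where 1724 rows passed, and 1 without either array of water without TST, where 564 rows passed in each case. Between doses it was 4 without low-dose RE replicate 2, where 714 rows passed. Leaving out both arrays high in cerebellar markers leaves 1 array in each water group. The low-dose differences were then 0.83 for Col4a2 and -0.82 for Col4a3.

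After Benjamini-Hochberg adjustment over all rows limma called 0 of 42 collagen genes in each of the 4 comparisons, and 0 of 22206 rows (0%) in each. At an unadjusted p under 0.05, limma gave 2 collagen genes in the low-dose and 0 in the other comparisons. The study's one-way analysis of variance gave 1 for TST, 1 for the low dose, 0 for the high dose and 1 between doses. In the same order, it gave 783, 619, 847 and 812 of all 22206 rows at that limit. The moderated F-test for any difference among the 4 groups gave 0 of 42 collagen genes at an unadjusted p under 0.05, against 404 rows (1.82%). Its lowest p among them, 0.0621, belonged to Col4a3. Standard errors (SE) of a difference ran from 0.217 for Col14a1 to 0.701 for Col18a1, so that sizeable differences could go undetected at 2 arrays a group. In bulk tissue, fewer cells of a type and less RNA per cell cannot be told apart.

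As a set, the collagen genes lay close to 0 in every comparison. Their median log2 difference was -0.0375 for water with TST minus water without TST, with 18 genes higher and 23 lower, and the median of all rows was 0.005. For low-dose RE minus water with TST it was 0.0625, with 27 higher and 15 lower (all rows 0.015). For high-dose RE minus water with TST it was 0.1275, with 28 higher and 14 lower (all rows 0.01). High-dose minus low-dose RE gave -0.0275, with 19 higher and 23 lower (all rows -0.005). Both RE comparisons share the water with TST arrays, and the TST comparison uses them too. Low-dose RE replicate 2 decided the sign of the low-dose median, which was -0.145 without it and 0.3075 without low-dose RE replicate 1. The TST median was -0.095 without water without TST replicate 1, and the high-dose median was 0.005 without high-dose RE replicate 1. Without both arrays high in cerebellar markers, a choice made after the data were seen, the low-dose and high-dose medians were 0.1575 and 0.0625.

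**Figure D1:**
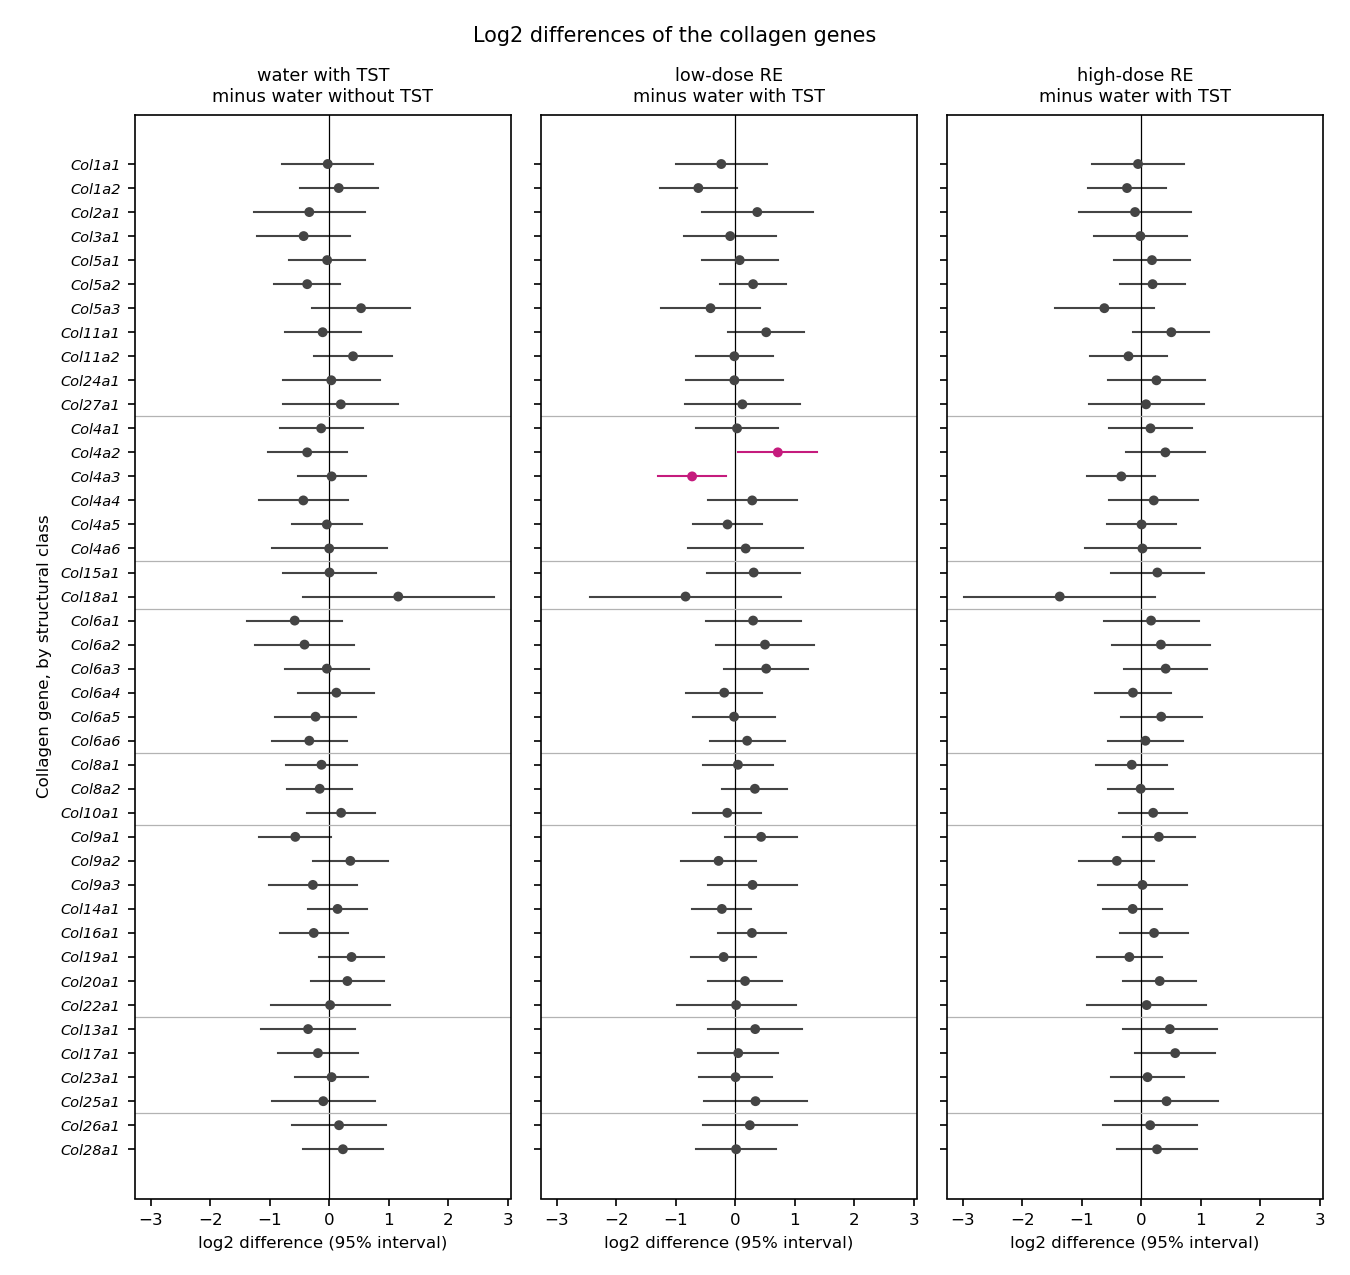
Log2 difference (x axis) of each of the 42 collagen genes (y axis, grouped by structural class) for 3 comparisons, with the 95% interval of the limma fit as a bar. Pink marks the 2 genes past the study's threshold, Col4a2 (0.715) and Col4a3 (-0.725) in the low-dose comparison, whose intervals leave out 0, and Col18a1 has the widest bars.

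The type IV chains carried both calls. Col4a1 and Col4a2 encode the chains of the common network found in all basement membranes, and human mutations in either gene cause cerebral small vessel disease. Col4a3 and Col4a4 encode chains best known from kidney glomeruli. The genes lie in head-to-head pairs, Col4a1 beside Col4a2 on chromosome 8, Col4a3 beside Col4a4 on chromosome 1, and Col4a5 beside Col4a6 on the X chromosome.

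The start regions of the first pair are printed because one gene of the pair was called and the other was not. Each is the RefSeq window from 250 bases before to 50 bases after the start of transcription in build GRCm38.p6. Col4a2 is read on the plus strand at chr8:11312555-11312854 and Col4a1 on the minus strand at chr8:11312777-11313076. Capitals mark the 78 bases that both windows share, read in opposite directions.
Col4a2: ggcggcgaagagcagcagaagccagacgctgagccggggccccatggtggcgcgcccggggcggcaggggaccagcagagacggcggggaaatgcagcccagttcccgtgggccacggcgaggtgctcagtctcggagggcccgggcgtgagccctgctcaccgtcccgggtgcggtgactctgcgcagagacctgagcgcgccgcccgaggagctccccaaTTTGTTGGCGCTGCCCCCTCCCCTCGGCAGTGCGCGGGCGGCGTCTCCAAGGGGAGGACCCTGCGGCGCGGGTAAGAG
Col4a1: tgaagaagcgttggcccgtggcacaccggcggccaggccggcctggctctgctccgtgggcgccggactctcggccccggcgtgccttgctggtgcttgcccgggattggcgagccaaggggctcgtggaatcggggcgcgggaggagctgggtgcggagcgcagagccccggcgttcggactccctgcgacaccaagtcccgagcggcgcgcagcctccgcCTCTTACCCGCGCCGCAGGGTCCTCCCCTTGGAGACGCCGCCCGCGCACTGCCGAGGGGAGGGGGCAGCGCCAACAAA

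The windows held 73.7% and 74.0% G and C for Col4a2 and Col4a1, with 33 and 37 CG dinucleotides. On either strand, the GC box letters GGGCGG occurred 3 times in the Col4a2 window and 1 time in that of Col4a1, and 1 of these matches lies in the shared bases; 35.7% of 32851 mouse promoter windows of this length hold it. The CCAAT letters occurred 1 time in each, 0 of them wholly within the shared bases (the match in Col4a2 crosses their border), and 37.4% of windows hold them. The TATA letters TATAAA occurred in neither, and 13.6% of windows hold them. Of the 42 genes, 34 have an entry in the promoter table, and Col4a3 is not among them.

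Col4a2 read 6.57 and 7.17 with low-dose RE, against 6.04 and 6.27 in water with TST, 6.77 and 6.35 with high-dose RE and 6.67 and 6.38 in water without TST. The low-dose arrays lay above both water with TST arrays, which were the lowest of the 8. The difference of low-dose RE from water with TST was 0.715 (SE 0.290, 95% interval 0.0505 to 1.38, n = 2 each, limma adjusted p = 0.946). For high-dose RE it was 0.405 (SE 0.290), with both arrays also above water with TST, and high-dose RE minus low-dose RE was -0.31 (SE 0.290). Neither passed the threshold, nor did water with TST minus water without TST, at -0.37 (SE 0.290).

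The low-dose call of Col4a2 was lost when any 1 of 4 arrays was left out. The difference was 0.415 without low-dose RE replicate 2 and 0.6 without water with TST replicate 1. Without either array of water without TST the difference stayed at 0.715 and missed the threshold. Without both arrays high in cerebellar markers it was 0.83, also short of the threshold.

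Col4a1, transcribed from the other side of the same start region, read 7.11 and 6.65 with low-dose RE, against 7.07 and 6.63 in water with TST, a difference of 0.03 (SE 0.303). It read 7.28 and 6.73 with high-dose RE and 7.14 and 6.83 in water without TST. Replicate 1 was above replicate 2 in all 4 groups, and each group overlapped the others. The 95% interval of its low-dose difference, -0.665 to 0.725, includes the size found for Col4a2, and the difference between the 2 genes was not tested.

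Col4a3 read 4.88 and 5.36 with low-dose RE, against 5.94 and 5.75 in water with TST. It read 5.43 and 5.59 with high-dose RE and 5.86 and 5.75 in water without TST. Both RE groups lay below both water groups, and low-dose RE held the 2 lowest arrays. Low-dose RE minus water with TST was -0.725 (SE 0.249, 95% interval -1.29 to -0.155, limma adjusted p = 0.946). The high-dose difference from water with TST was -0.335 (SE 0.249) and that of high-dose from low-dose RE 0.39 (SE 0.249), neither past the threshold. The low-dose call was lost without low-dose RE replicate 1 (-0.485) and without water with TST replicate 1 (-0.63). It held at -0.82 without both arrays high in cerebellar markers. The row belongs to the dimmest 25% of the table, and a fit without those rows does not test it.

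Col4a4, the neighbour of Col4a3, read 6.77 and 7.54 with low-dose RE, against 6.72 and 7.02 in water with TST, and its difference of 0.285 (SE 0.327) had the opposite sign to that of Col4a3. It read 6.79 and 7.37 with high-dose RE and 7.40 and 7.21 in water without TST. The arrays of each RE group spread by more than 0.5 and overlapped both water groups. In water with TST both arrays lay below those of water without TST, at a difference of -0.435 (SE 0.327). Col4a5 and Col4a6, whose chains join in the basement membranes of epithelia and smooth muscle, differed by -0.13 and 0.175 with low-dose RE, by 0.005 and 0.02 with high-dose RE and by -0.04 and 0 with TST.

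Col18a1 and Col15a1, the multiplexins, differed from each other in their spread. Col18a1, whose protein carries heparan sulfate and releases endostatin, read 5.77 and 8.43 in water with TST, 6.41 and 6.12 with low-dose RE, 5.70 and 5.76 with high-dose RE, and 6.20 and 5.68 in water without TST. Water with TST replicate 2, the array highest in cerebellar markers, was alone above 6.41. The other array with raised cerebellar markers read 6.20. Its range of 2.75 was the widest of the 42 genes, and it was the only one above 1.5.

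The difference of Col18a1 was 1.16 (SE 0.701, 95% interval -0.446 to 2.77) for water with TST minus water without TST, -0.835 for low-dose RE and -1.37 for high-dose RE minus water with TST, none past the threshold. Without replicate 2 of water with TST the differences were -0.17, 0.495 and -0.04, and without water with TST replicate 1 they were 2.49, -2.165 and -2.7, each then over the limits of a call. Col15a1, found in vessel and muscle basement membrane zones, read 5.02 and 5.74 in water with TST, 5.48 and 5.90 with low-dose RE, 6.01 and 5.29 with high-dose RE, and 5.34 and 5.41 in water without TST. Its groups overlapped in all 4 comparisons, with differences from water with TST of 0.31 (SE 0.342) at the low and 0.27 at the high dose.

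**Figure D2:**
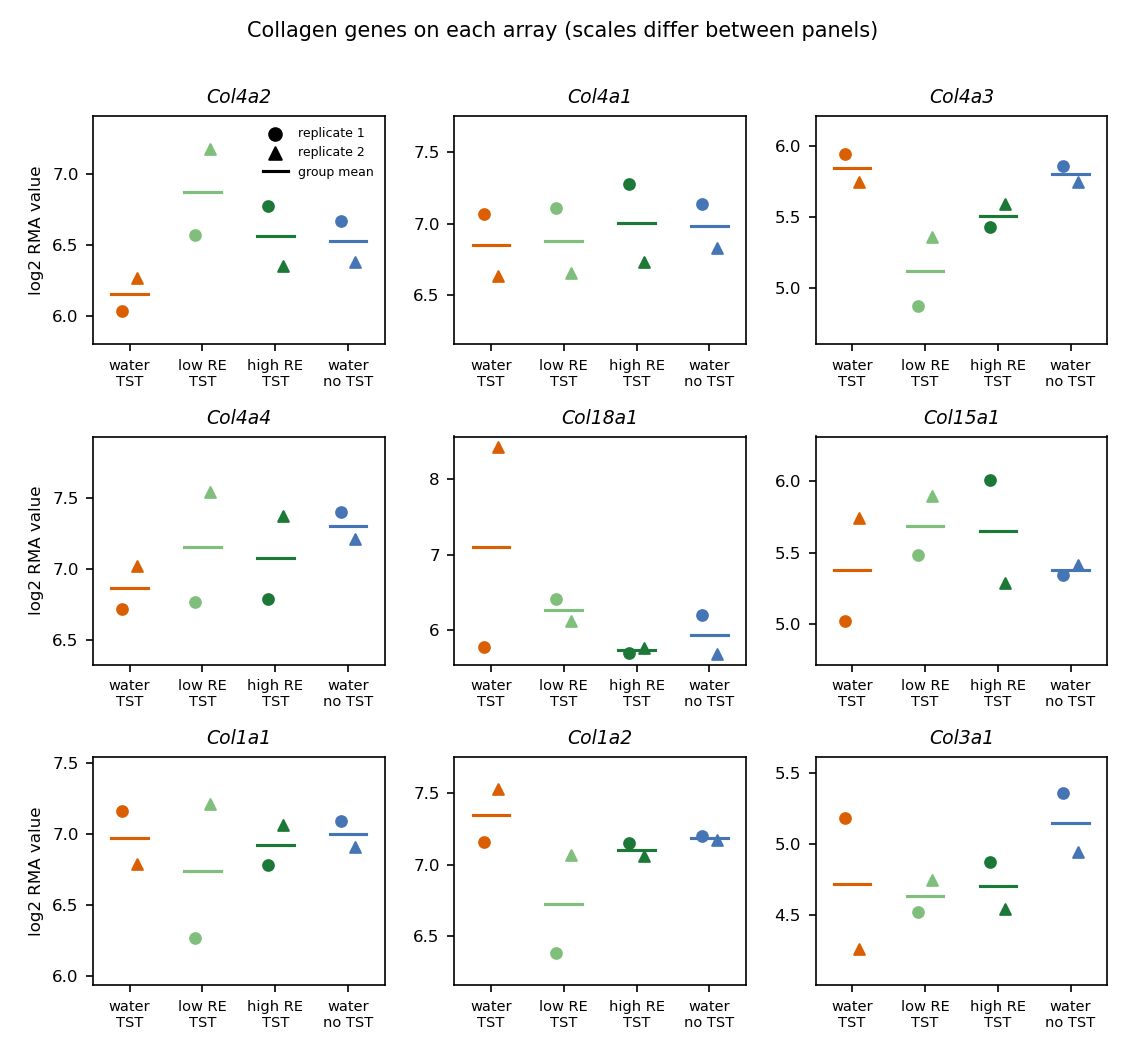
Log2 RMA value (y axis, with a scale for each panel) of 9 collagen genes in the 4 groups (x axis), with a circle for replicate 1, a triangle for replicate 2 and a line at the group mean. By group mean, Col4a2 is lowest and Col4a3 highest in water with TST, and 1 array of that group carries the high value of Col18a1, 8.43.

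Among the 11 fibrillar chains, 0 passed the threshold in any comparison, and 5 were higher and 6 lower in each. Their median differences were -0.025 for TST and -0.015 for each of the others. Col1a1 and Col1a2 encode the chains of type I collagen, the main fibril of meninges and adventitia. Col1a2 read 6.38 and 7.07 with low-dose RE, against 7.16 and 7.53 in water with TST, 7.15 and 7.06 with high-dose RE and 7.20 and 7.17 in water without TST. Low-dose RE replicate 1 was lowest, and both low-dose arrays lay below both water with TST arrays, but the difference of -0.62 (SE 0.285, 95% interval -1.27 to 0.0321) missed the threshold. It passed after quantile normalization, without low-dose RE replicate 2 and without water with TST replicate 1.

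Col1a1 read 6.27 and 7.21 with low-dose RE, against 7.16 and 6.79 in water with TST, 6.78 and 7.06 with high-dose RE and 7.09 and 6.91 in water without TST. The low-dose pair held both its lowest and its highest array, and the difference was -0.235 (SE 0.334). Col3a1, the fibril chain of vessel walls and other pliable tissue, read 4.52 and 4.75 with low-dose RE, against 5.18 and 4.26 in water with TST, 4.87 and 4.54 with high-dose RE and 5.36 and 4.94 in water without TST. Its lowest array was water with TST replicate 2, and water with TST minus water without TST was -0.43 (SE 0.339).

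Col11a2, best known from cartilage fibrils, read 8.33 and 8.80 in water with TST, 8.33 and 8.77 with low-dose RE, 8.32 and 8.38 with high-dose RE, and 7.95 and 8.38 in water without TST. Its arrays overlapped between all groups, and the TST difference was 0.4 (SE 0.283). Its partner chain in cartilage, Col11a1, read 6.95 and 6.96 with low-dose RE and 7.03 and 6.85 with high-dose RE, against 6.80 and 6.07 in water with TST and 6.5 and 6.59 in water without TST. Both RE groups lay above both water groups, with differences from water with TST of 0.52 (SE 0.279) at the low and 0.505 at the high dose, neither past the threshold, and the lowest array was water with TST replicate 2.

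Col5a1, Col5a2 and Col5a3 encode type V chains, which start and thin type I fibrils. Col5a2 read 5.13 and 5.23 in water with TST, 5.47 and 5.49 with low-dose RE, 5.13 and 5.61 with high-dose RE, and 5.57 and 5.53 in water without TST. Its replicates lay close together in 3 of 4 groups, and it was the gene that the analysis of variance called in the TST (-0.37) and low-dose (0.3) comparisons, which limma did not. Col5a3 read 6.19 on water with TST replicate 2 and at most 5.52 elsewhere. The remaining fibrillar genes, Col2a1, Col5a1, Col24a1 and Col27a1, differed by -0.335 to 0.37 in the TST, low-dose and high-dose comparisons.

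Of the 6 type VI chains, 0 passed the threshold. Col6a1, Col6a2 and Col6a3 encode the chains of the common filament, which in brain lies around vessels and in meninges. Col6a1 read 6.76 and 7.36 with low-dose RE, against 7.15 and 6.37 in water with TST, 7.18 and 6.67 with high-dose RE and 7.46 and 7.22 in water without TST. Water with TST lay below water without TST on both arrays, at -0.58 (SE 0.348), and water with TST replicate 2 was the lowest of the 8.

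Col6a2 read 7.68 and 7.24 with low-dose RE, against 7.24 and 6.68 in water with TST, 7.5 and 7.08 with high-dose RE and 6.94 and 7.81 in water without TST. Its low-dose arrays were no lower than those of water with TST (difference 0.5, SE 0.361), while the water without TST pair spanned all the others but 1. Col6a3 read 6.90 and 7.70 with low-dose RE and 7.09 and 7.29 with high-dose RE, against 6.72 and 6.84 in water with TST and 6.63 and 7.01 in water without TST. Both RE groups lay above water with TST, at 0.52 (SE 0.307) and 0.41. Col6a4, Col6a5 and Col6a6 differed by -0.335 to 0.335 in the TST, low-dose and high-dose comparisons.

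The short chains build hexagonal lattices, as Col8a2 does in the cornea. Col8a2 read 9.77 and 9.98 with low-dose RE, against 9.75 and 9.34 in water with TST, 9.52 and 9.55 with high-dose RE and 9.73 and 9.68 in water without TST. The low-dose arrays were the 2 highest, and its difference from water with TST was 0.33 (SE 0.238). Col10a1, of growth plate cartilage, read 4.83 and 4.86 with low-dose RE, against 5.17 and 4.79 in water with TST, 5.11 and 5.25 with high-dose RE and 4.60 and 4.96 in water without TST. High-dose RE lay above low-dose RE by 0.335 (SE 0.247), the one dose difference of a collagen gene that the analysis of variance called. Col8a1, of vessel walls and cornea, differed by -0.16 to 0.045 in the comparisons with water with TST.

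FACIT collagens decorate fibrils, and 0 of 8 passed the threshold. Col9a3, a chain of the type IX collagen of cartilage, read 9.19 and 10.14 with low-dose RE, against 9.22 and 9.53 in water with TST, 9.45 and 9.34 with high-dose RE and 9.72 and 9.58 in water without TST. The low-dose pair again held the lowest and the highest array, and the highest, replicate 2, was the array highest in choroid plexus markers. Its chain partner Col9a1 read 5.88 and 6.14 in water with TST, against 6.74 and 6.42 in water without TST, and that difference of -0.57 (SE 0.264, 95% interval -1.17 to 0.0340) came nearest to the threshold among the collagen genes in the TST comparison.

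Col16a1, which binds integrins beside fibrils, read 10.03 and 10.51 with low-dose RE, against 9.90 and 10.08 in water with TST, 10.28 and 10.13 with high-dose RE and 10.33 and 10.17 in water without TST. Low-dose RE overlapped water with TST, and the difference was 0.28 (SE 0.249). Col19a1, which in mouse hippocampus is made by interneurons and takes part in forming their synapses, read 5.88 and 6.33 in water with TST, 5.96 and 5.86 with low-dose RE, 5.88 and 5.93 with high-dose RE, and 5.77 and 5.69 in water without TST. The water with TST arrays lay above those of water without TST, at 0.375 (SE 0.238), with replicate 2 alone above 6. Col9a2, Col14a1, Col20a1 and Col22a1 differed by -0.41 to 0.355 in the TST, low-dose and high-dose comparisons.

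Transmembrane collagens span the cell surface and shed their outer part. All 4 were on average higher with high-dose RE than in water with TST, by 0.105 to 0.57, and 0 passed the threshold. Col17a1, of hemidesmosomes in skin, read 5.58 and 5.20 with high-dose RE, against 4.94 and 4.70 in water with TST, 4.51 and 5.23 with low-dose RE and 5.03 and 4.99 in water without TST; its high-dose difference was 0.57 (SE 0.295). Col13a1, which in mouse stabilizes the neuromuscular synapse, read 8.42 and 8.87 with high-dose RE, against 8.34 and 7.99 in water with TST, 8.02 and 8.98 with low-dose RE and 8.51 and 8.53 in water without TST. Its high-dose arrays lay above water with TST, at 0.48 (SE 0.344), and the low-dose arrays spread over nearly the whole range.

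Col25a1, a neuronal collagen whose shed part is found in amyloid plaques of human brain, read 8.62 and 8.39 with high-dose RE, against 8.64 and 7.52 in water with TST, 8.14 and 8.70 with low-dose RE and 8.17 and 8.19 in water without TST. Its lowest array was water with TST replicate 2, which was also lowest in the forebrain list. The groups overlapped in the TST, low-dose, high-dose and between-dose comparisons, while both high-dose RE arrays lay above both arrays of water without TST. Col23a1 differed by 0.005 to 0.105. Of the others, Col28a1, known from peripheral nerve, read 8.23 and 8.78 in water with TST, 8.23 and 8.81 with low-dose RE, 8.88 and 8.66 with high-dose RE, and 8.32 and 8.23 in water without TST. Col26a1, first described in testis and ovary, read 5.04 and 4.89 in water with TST, 5.0 and 5.42 with low-dose RE, 5.35 and 4.88 with high-dose RE, and 4.34 and 5.26 in water without TST. Neither separated the groups in the TST, low-dose and high-dose comparisons, with differences of 0.015 to 0.265.

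Where the arrays of compared groups did not overlap, the collagen counts can be set beside those of all rows. In the TST comparison 3 collagen genes (7.14%) lay wholly higher in water with TST and 11 (26.2%) wholly lower, against 14.2% and 13.3% of all rows. The 11 were Col5a2, Col4a2, Col4a4, Col6a1, Col6a5, Col6a6, Col9a1, Col9a3, Col16a1, Col13a1 and Col17a1, and 0 of them passed the threshold. With low-dose RE 7 (16.7%) lay wholly above and 3 (7.14%) wholly below water with TST, against 13.1% and 11.9% of rows. With high-dose RE 7 (16.7%) lay wholly above and 5 (11.9%) wholly below, against 15.3% and 15.2%. Between the high and the low dose 3 (7.14%) were wholly higher and 2 (4.76%) wholly lower, against 12.9% and 13.7%.

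Most collagen genes differed between the replicates of the low-dose RE pair in the same direction. In 34 of 42 genes (81.0%) replicate 2 was above replicate 1, by a median of 0.43 over all 42, whereas replicate 2 was higher in 49.0% of all rows. The same count was 24 in water with TST, 18 with high-dose RE and 17 in water without TST. Low-dose RE replicate 2 was the highest of the 8 arrays for 15 collagen genes (35.7%), against 17.7% of all rows. Low-dose RE replicate 1 was highest for 0 of the 42, against 11.6% of all rows, and lowest for 9 of the 42, against 12.8%. Replicates 1 and 2 of water with TST were lowest for 8 of 42 and 9 of 42 collagen genes, against 11.7% and 20.7% of all rows.

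Most structural classes ran alike on this pair. Mean deviations from the 8-array mean were -0.227 and 0.230 on low-dose replicates 1 and 2 for the fibrillar chains, -0.244 and 0.215 for type IV, -0.152 and 0.260 for type VI, -0.167 and 0.252 for FACIT and -0.277 and 0.278 for the transmembrane chains. The multiplexins averaged 0.0538 and 0.119, the short chains -0.0283 and 0.128, and the class of others -0.155 and 0.345. Markers of endothelium (0.0474 and -0.135) and fibroblasts (-0.316 and -0.368) were lower on replicate 2, and mural cell markers (-0.0573 and -0.0442) lay close together.

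In the deposited values, dim rows in general ran the same way as the collagen genes. Low-dose RE replicate 2 had a 25th percentile of 5.81, against 5.48 to 5.68 on the other arrays. Of the 11102 rows below the median mean level, which include 33 of the 42 collagen genes, 67.4% were higher on replicate 2. Of all rows, bright and dim, 49.0% were higher. Among those 33 collagen genes 25 were higher, and among all 42 it was 34, so collagen genes above that level were higher too. After quantile normalization, which gives all arrays 1 distribution, 28 of 42 collagen genes were higher on replicate 2, by a median of 0.223. Of all rows 48.7% were then higher on replicate 2, and of the 11102 dimmer rows 49.4%. The part of array distribution and of choroid plexus RNA in the remainder was not tested.

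**Figure D3:**
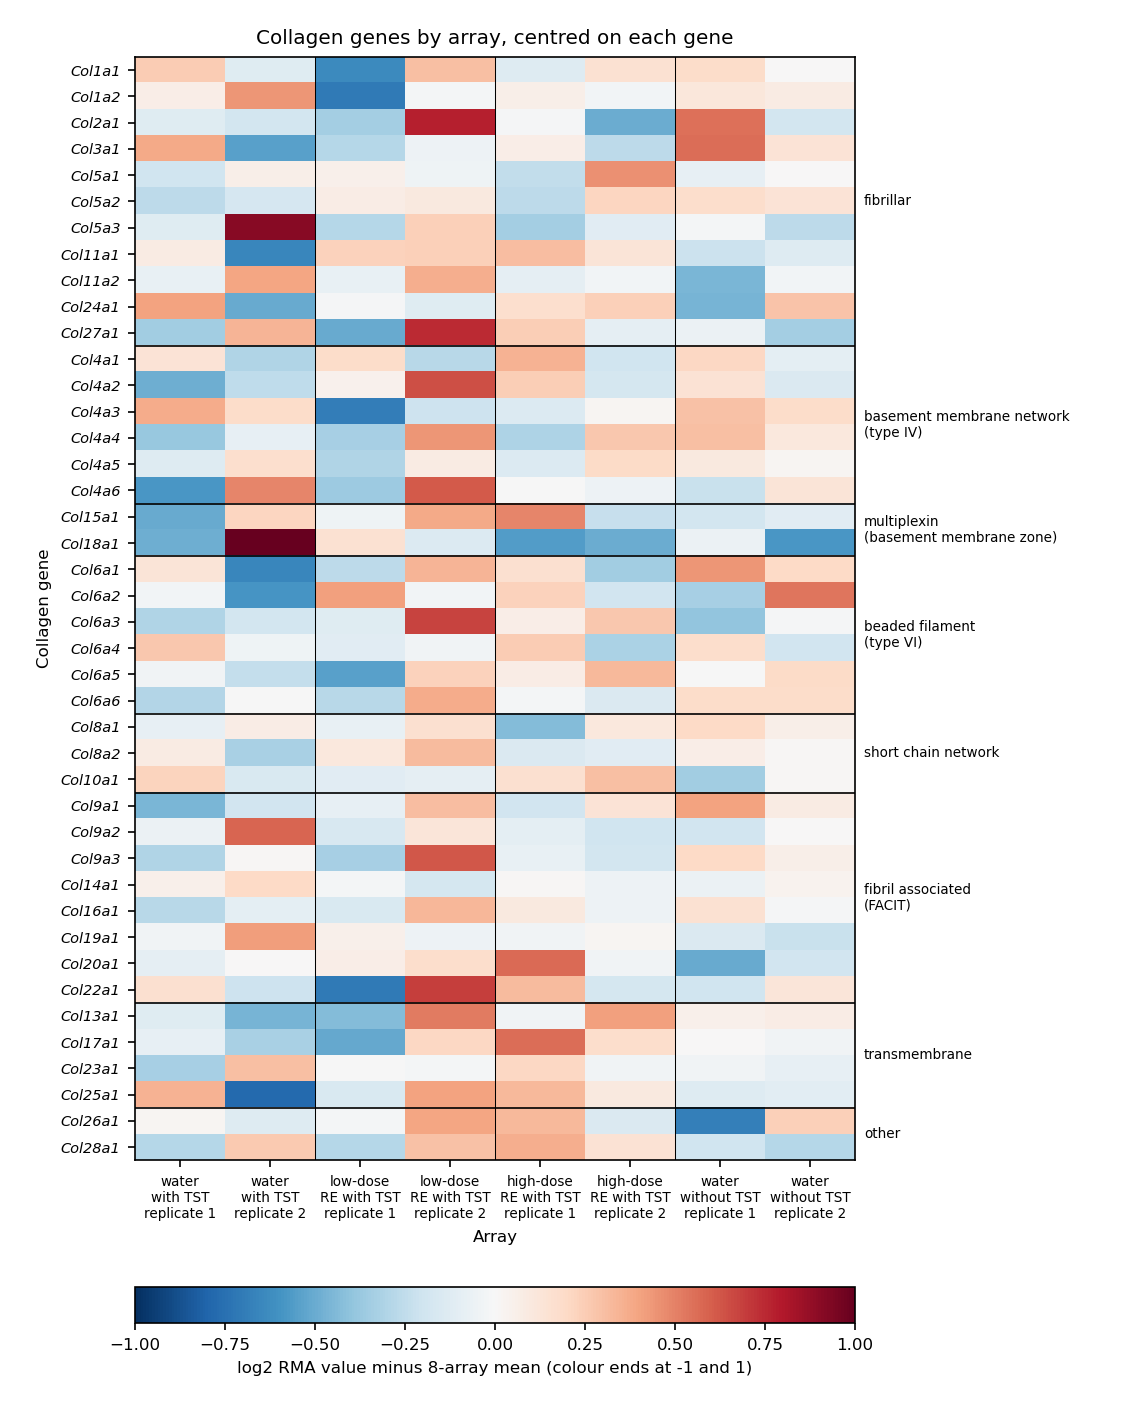
Deviation of the log2 RMA value from each gene's 8-array mean (colour) for the 42 collagen genes (rows, by class) on the 8 arrays (columns); colour ends at -1 and 1, and Col18a1 on water with TST replicate 2 lies beyond it. Low-dose RE replicate 1 is mostly blue and replicate 2 mostly red, as 34 of 42 genes were higher on replicate 2.

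Of 72 measured genes that build, modify and bind collagen, in 6 partner lists, 6 (8.33%) were called with low-dose RE and 8 (11.1%) with high-dose RE, against 3.54% and 3.17% of all rows. With TST 1 (1.39%) was called, against 2.55% of rows, and between doses 0, against 1.91%. These genes were chosen with earlier results known, and both RE comparisons share the water with TST arrays. The thalamic neuron markers moved with the same comparisons: 6 of 10 were called higher with low-dose RE (median 1.455) and 5 of 10 with high-dose RE (median 1.2025), and their part in the partner and collagen differences was not tested. At an adjusted p under 0.05, 0 partner genes passed; the lowest adjusted p of limma was 0.946 for low-dose RE, 0.973 for high-dose RE and 0.997 for TST. Of 17 measured genes of collagen synthesis, 0 were called with TST, 1 higher and 0 lower with low-dose RE, and 1 higher and 2 lower with high-dose RE. P4ha1, the catalytic subunit of the prolyl hydroxylase that makes the triple helix stable, read 12.06 and 11.89 with low-dose RE and 12.02 and 12.61 with high-dose RE, against 11.47 and 10.51 in water with TST and 11.43 and 11.62 in water without TST. Both RE groups lay above all water arrays, as they did for the thalamic markers. The difference from water with TST was 0.985 (SE 0.352) at the low dose and 1.325 (SE 0.352) at the high dose. The low-dose call was lost without water with TST replicate 2 (0.505) and without either low-dose array, and the high-dose call held in all 8 fits that left out 1 array.

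Plod2, which hydroxylates collagen lysines, and Mia3, which loads procollagen for export, were lower with high-dose RE (-0.685 and -0.595), and each of these calls was lost in 6 of the 8 fits. Of 10 genes of trimming and cross-linking, Loxl3, a lysyl oxidase, was called higher with low-dose RE (7.77 and 7.61, against 6.97 and 6.75 in water with TST; 0.83) and lost without water with TST replicate 2 (0.72) or low-dose RE replicate 1. Bmp1, the procollagen C-proteinase, was called lower with high-dose RE (8.33 and 8.56, against 9.47 and 11.74 in water with TST; -2.16). It was highest on the 2 arrays with raised cerebellar markers, reading 10.38 on water without TST replicate 1, and the call was lost without water with TST replicate 2 (-1.025) and without high-dose RE replicate 1.

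Of 9 measured collagen receptors 1 was called: Ddr1, a receptor kinase, was lower with low-dose RE, at 7.22 and 7.45 against 8.05 and 8.01 in water with TST (-0.695, SE 0.240), and lost without low-dose RE replicate 1. Of 11 genes of collagen degradation and its inhibitors, 0 were called in any comparison. Of 14 basement membrane partners 1 was called: Lamb1, a laminin chain, was lower with high-dose RE, at 6.90 and 7.15 against 8.38 and 7.72 in water with TST (-1.025), and lost without high-dose RE replicate 1 or water with TST replicate 1 (lowest size -0.695).

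Small proteoglycans and other fibril regulators held the most partner calls, in 4 of 11 genes: 0 higher and 1 lower with TST, 0 and 3 with low-dose RE, and 1 and 2 with high-dose RE. With each dose that is 3 of 11, against 3.54% of all rows at the low and 3.17% at the high dose. Their median differences were -0.1, -0.58 and -0.49. Bgn (biglycan) read 6.66 and 6.61 with low-dose RE and 6.89 and 6.86 with high-dose RE, against 7.57 and 7.33 in water with TST and 7.0 and 7.44 in water without TST. All 4 RE arrays lay below all 4 water arrays, and the difference from water with TST was -0.815 (SE 0.243) at the low and -0.575 at the high dose. The low-dose call held in all 8 fits, and the high-dose one was lost in 5.

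Ogn (osteoglycin), also a marker of meningeal fibroblasts, read 8.89 and 9.09 with low-dose RE and 9.63 and 8.73 with high-dose RE, against 10.34 and 10.19 in water with TST and 10.81 and 9.75 in water without TST. All RE arrays were again the lowest, with differences of -1.275 at the low and -1.085 at the high dose. Omd (osteomodulin) was lower with low-dose RE (-1.305), and lost without water with TST replicate 2 (-1.095) or low-dose RE replicate 2. Omd read 4.97 and 4.80 with low-dose RE, against 5.98 and 6.40 in water with TST and 6.22 and 4.78 in water without TST. Postn (periostin) read 5.78 on water with TST replicate 2 and 6.82 to 7.37 elsewhere; it was called lower in water with TST than without (-0.935) and higher with high-dose RE (0.79), and without that array the differences were -0.415 and 0.27, neither called.

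In all, 11 partner genes gave 15 calls, of which 2 held in all 8 fits that left out 1 array and 7 held without water with TST replicate 2. For Ogn the low-dose call was lost without low-dose RE replicate 1, and the high-dose call without high-dose RE replicate 2 or water with TST replicate 1 (size down to -0.635).

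Markers of the cells that make collagen were set beside these values. Of 15 markers of meningeal and perivascular fibroblasts, which include Ogn, Dcn and Lum of the proteoglycan list, 14 were lower with low-dose RE than in water with TST, 2 of them called (Ptgds and Ogn), and their median difference was -0.475. With high-dose RE 13 of 15 were lower, 1 called, with a median of -0.315. Of all rows, 47.5% were lower and 3.54% called with low-dose RE, and 48.1% were lower and 3.17% called with high-dose RE. The list's mean deviation was -0.316 and -0.368 with low-dose RE, 0.0357 and -0.360 with high-dose RE, 0.378 and 0.231 in water with TST, and 0.528 and -0.128 in water without TST. The 11 fibrillar collagens, which include chains best known from cartilage, had medians of -0.015 in both comparisons, with 5 higher and 6 lower in each. Col1a1, Col1a2 and Col3a1, named above for meninges and vessel walls, differed by -0.235, -0.62 and -0.085 with low-dose RE. With high-dose RE they differed by -0.055, -0.24 and -0.015, and none passed the threshold in either comparison.

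Endothelial markers (15 genes) had medians of -0.07 with low-dose RE, 0 called, and -0.075 with high-dose RE, 1 called, and mural cell markers (13 genes) of -0.1 and -0.08 with 0 called. Choroid plexus markers were higher with low-dose RE in 10 of 10, by a median of 1.03, and 1 was called. With high-dose RE 9 of 10 were higher (median 0.715, 1 called), and in water with TST 8 of 10 were lower than in water without TST (median -0.5525, 0 called). Of all rows, 51.9% were higher with low-dose RE, 51.2% were higher with high-dose RE and 49.2% were lower with TST. Of the 6 erythrocyte markers 2 were measured, with 0 called in the TST, low-dose and high-dose comparisons. The part of these cells in the collagen values was not tested.

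**Figure D4:**
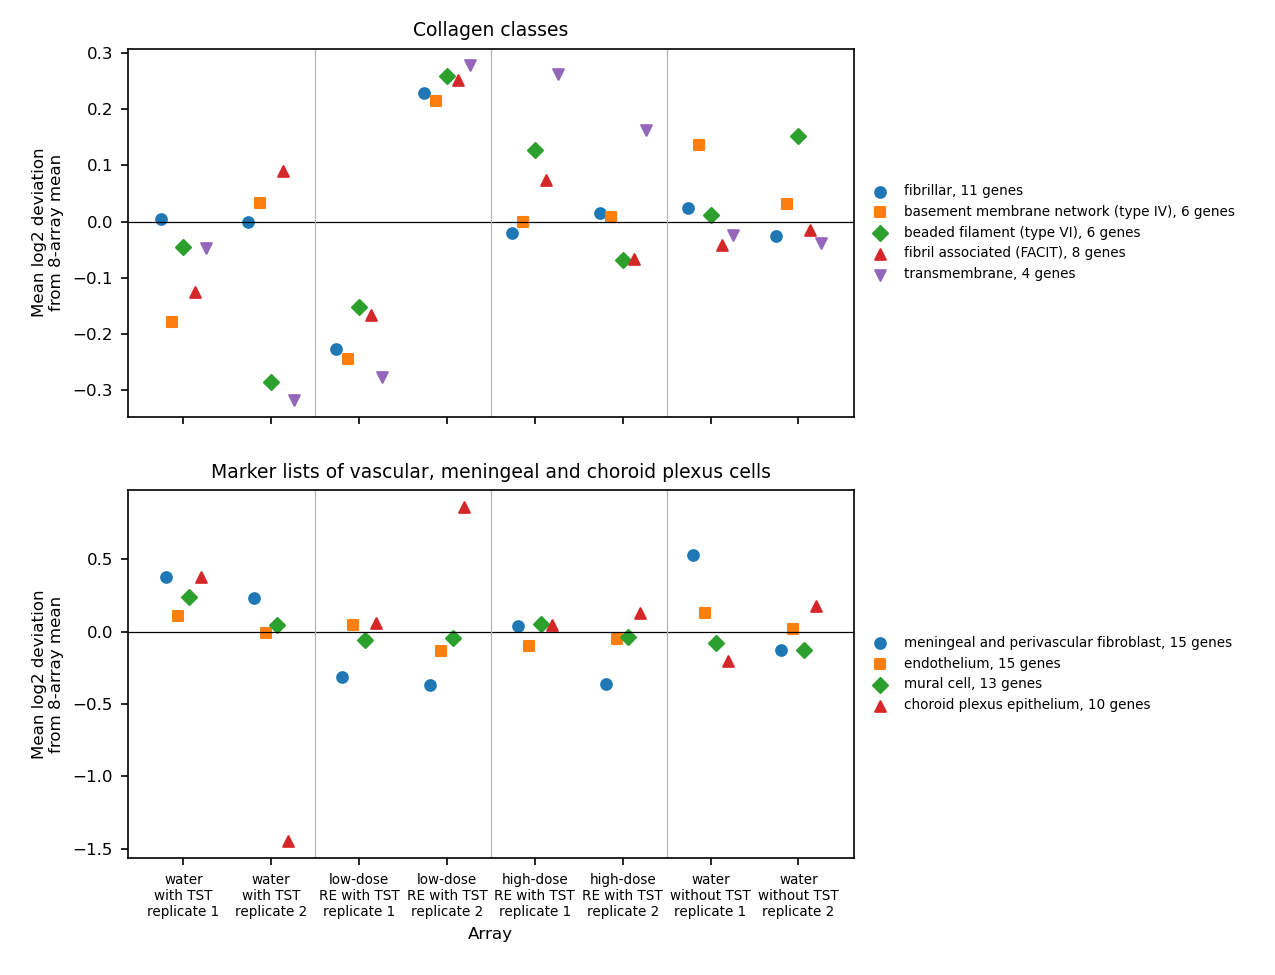
Mean log2 deviation from the 8-array mean (y axes, which differ in scale) for 5 collagen classes (top) and 4 marker lists (bottom) on each array (x axis). All 5 collagen classes lie below 0 on low-dose RE replicate 1 and above 0 on replicate 2, while fibroblast markers lie below 0 on both, at -0.316 and -0.368.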

How the data were processed

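RNA of 8 samples in 4 groups of 2 was hybridized to Clariom S arrays, 1 array a sample. The deposited log2 values had been normalized by the authors with RMA in Transcriptome Analysis Console 4.0.1, per the submitters' design text. They were kept as deposited. They run from 2.76 to 19.79, and 1359 exceed 16, the limit of a 16-bit scanner, so the scale may be stretched. The table holds no detection calls. Precision is limited by the number of arrays. For the array no genome build is stated by the sources used here.

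Symbols came from the platform annotation; by gene identifier all 42 collagen rows were found in the gene table, with 0 symbols updated. Where a gene has several rows, the row with the highest mean was to be taken. Promoter windows are from RefSeq (GRCm38.p6).

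Group means were fitted to all 22206 rows and 8 arrays with limma 3.58.1 (lmFit, eBayes) in R 4.3.3, with 4 residual and 4.30 prior degrees of freedom. Two-sided p-values were adjusted by Benjamini and Hochberg's method over the whole table, and the code was tested on simulated data. The study's threshold (fold above 1.2, unadjusted p under 0.05) was applied to this fit.

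Collagen genes, classes, partner lists and markers were chosen with earlier results of these data known. By rule, values on every array were given for the 2 genes of highest mean in each class, genes past the threshold and 8 genes whatever their values. Of each of the 6 partner lists, called members were named, not all of them with values on every array. The array values of Col11a1, Col5a2, Col9a1, Col17a1 and Col19a1 were added after they were seen.

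Alternatives were a replicate block, a fit without the groups not compared, quantile normalization, a robust variance prior with a trend, a filter on the dimmest 25% of rows, the mean of all rows of a gene, the study's one-way analysis of variance on the 4 arrays compared, and leaving out each array. Leaving out both arrays high in cerebellar markers was added after the data were seen. No array of another series was in the table.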

Additional observations from a re-analysis of the deposited data

How the results depend on the processing

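With low-dose RE, 2 collagen genes and 787 rows passed the study's threshold in the main fit. The replicate block gave 1 (Col4a3, with Col4a2 lost) and 702 rows, and only the groups compared gave 0 and 267 rows. Without the dimmest 25% of rows 1 collagen gene (Col4a2) and 562 rows passed, and by the analysis of variance 1 (Col5a2) and 487 rows. Quantile normalization gave 3 (Col1a2, Col4a2 and Col4a3) and 930 rows. The analysis of variance gave 1 in the TST comparison (Col5a2) and 1 between doses (Col10a1), against 0. Of all rows, 605 and 559 passed there. Rows past the threshold numbered 352 (TST) and 267 (low dose) with only the groups compared, 487 (low dose) by the analysis of variance, and 251 (between doses) without the dimmest 25%. Deviations of same-numbered arrays correlated at -0.293 to 0.169 between groups. Whether same-numbered samples were handled as pairs is not given, and these correlations cannot settle it. The replicate block moved no other collagen count. Leaving out each array in turn gave 364 to 3707 rows and 0 to 6 collagen genes for TST, 496 to 3767 and 1 to 5 for the low dose, 354 to 3785 and 0 to 5 for the high dose, and 247 to 1183 and 0 to 4 between doses. The highest row counts of the TST, low-dose and high-dose comparisons came without water with TST replicate 1, which leaves replicate 2 alone in its group and assumes that it varies like the others; the cause was not tested. The collagen median ran from -0.145 to 0.3075 (low dose) and from -0.26 to 0.1725 (between doses); the SD between replicates of this median was 0.137. Col18a1 ran from -0.17 to 2.49 for TST and from -2.165 to 0.495 for the low dose, and was 0.495 without both arrays high in cerebellar markers. Signs of the 4 collagen medians under the dim-row filter and quantile normalization equalled those reported. The block and the mean of rows could not change these medians. Each group holds both replicate numbers, and each collagen gene has 1 row. With no detection call, how many dim collagen genes lay above background was not tested.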
